A study of Mus musculus with 2 samples.

Results

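The genes described here are the death receptor genes Tnfrsf10b, Fas and Tnfrsf1a, the apoptotic caspase genes Casp2, Casp6, Casp8 and Casp9, and Cflar, which encodes the caspase-like inhibitor FLIP. They were chosen by symbol, from a list of 8 genes that leaves out the inflammatory caspases. Of these 8 genes 7 were found among the 18224 genes of the deposited table, and Fas was not analysed here. RNA depleted of ribosomal RNA was sequenced from B16 cells, a pigmented melanoma line from mouse, in 2 groups of 1 library each. The control library came from B16 cells given a control treatment, and the other from B16 cells treated with LY500307. LY500307 (erteberel) is a synthetic compound that activates estrogen receptor beta in preference to the alpha form. The sources used here do not give dose, time, vehicle or the number of cultures behind a library. With 1 library per group there is no replicate check of any difference, and values hold for this pair of libraries only.

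Death receptors are membrane proteins of the TNF receptor superfamily whose cytoplasmic death domain recruits adaptors such as FADD and TRADD when a ligand binds. FADD brings in the initiator caspase encoded by Casp8, which becomes active when its molecules are brought together. It then cleaves effector caspases, which cut many cell proteins. FLIP resembles this initiator but has no catalytic cysteine. It takes places in the same complex, and its long form can also pair with the initiator and alter its activity. A separate route starts at mitochondria, where released cytochrome c assembles APAF1 and the initiator encoded by Casp9 into the apoptosome. Caspases are made as inactive precursors, so a transcript level does not measure caspase activity.

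The feature that separates FLIP from the caspases can be read in the coding sequences. The caspase active site is encoded by codons for glutamine, alanine, cysteine, any residue and glycine. Each of the 4 caspase genes in the set had 1 in-frame match of this motif in its longest reading frame, and Cflar had 0. In each caspase line the capitals mark the codon of the catalytic cysteine, inside 27 bases of coding sequence from GENCODE M21 transcripts, written 5′ to 3′. For Cflar a global alignment of the translated reading frames with Casp8 paired the glutamine codons and left a gap within the stretch shown for Casp8. The capitals in the Cflar line mark the codon at the same distance after that glutamine codon. The 2 reading frames were identical at 32.5% of 434 aligned positions.
Casp8: ttcattcaggctTGCcaaggaagtaac
Casp9: ttcatccaggccTGCggtggtgagcag
Casp2: ttcatccaagcaTGTcgtggagatgag
Casp6: atcatccaggccTGTcggggtagccag
Cflar: tttattcagaacTATgagtcgttaggt

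The control library held 16704950 reads and the LY500307 library 14698853, recovered from the deposited values. Levels are given as CPM, a read count scaled by the factor of its library in the deposited values. It was not scaled by the library's own total and not divided by gene length. A single read was worth 0.0603 CPM in the control and 0.0676 CPM in the LY500307 library. Each of the 7 genes passed the minimum mean of 1 CPM that left 12243 measured genes. All 7 melanocyte markers were listed, with summed levels of 26245 and 25082 CPM. Of 16 leukocyte markers 4 were listed, with sums of 2.17 and 2.09 CPM, and of 13 stromal, endothelial, keratinocyte and erythroid markers 5 were listed, with sums of 12.4 and 12.8 CPM. In bulk RNA a different number of cells of a type and a different amount of RNA per cell cannot be told apart.

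The LY500307 library was set against the control library to ask how the level of each death receptor and caspase transcript differs with the agonist. Both death receptor genes that were measured were higher in the LY500307 library, as were Casp6 and Casp9, Casp2 and Casp8 were close to the control, and Cflar was lower. None of the 7 genes reached 2-fold, on the scale log2((LY500307 + 1)/(control + 1)) of CPM, where 0.253% of all measured genes reached it upward and 0.123% downward. A smaller rule was set at 25% higher, or 20% lower, of CPM + 1. By it 1 of the 7 genes, Tnfrsf10b, was higher, against 8.31% of all measured genes, and 0 were lower, against 6.61%. The median log2 fold of the 7 genes was 0.22, and that of all measured genes was -0.01. The genes were chosen with earlier results of these libraries known, so this median carries no test.

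Counting error was given as an exact Clopper-Pearson interval at 95% of the ratio of reads. PCR reads without molecular identifiers are not independent molecules, and these intervals cover counting error only. The interval lay above 1 for 4 of the 7 genes, Tnfrsf10b, Tnfrsf1a, Casp6 and Casp9, against 17.2% of all measured genes. It lay below 1 for 1 gene, Cflar, against 19.2% of all measured genes. It included 1 for Casp2 and Casp8.

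**Figure D1:**
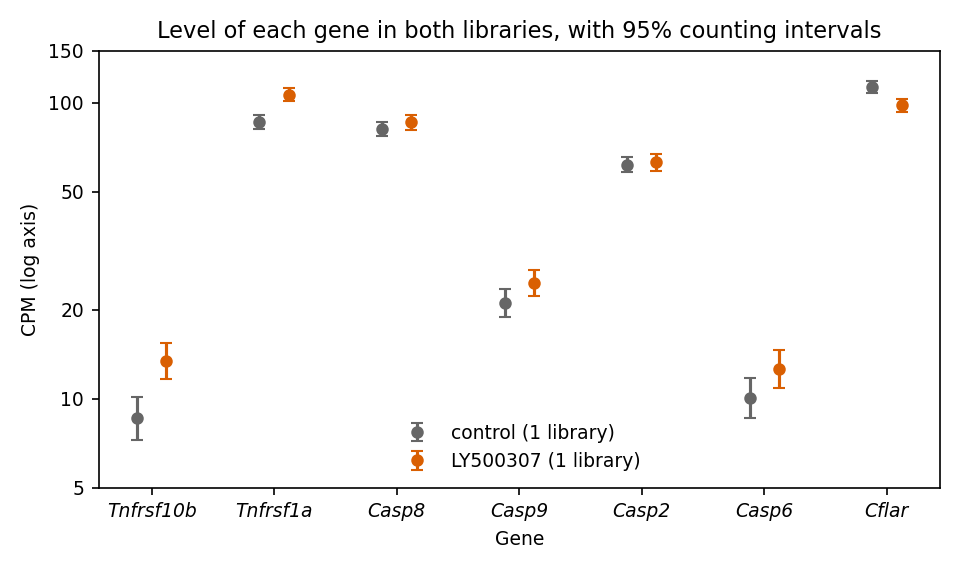
Level of each gene in CPM on a log axis, in the control library (grey) and the LY500307 library (orange), with 1 library per group and exact Poisson 95% intervals of the reads as bars. The intervals of the 2 libraries are apart for Tnfrsf10b, Tnfrsf1a and Cflar and overlap for the caspase genes.

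Among the receptors, Tnfrsf10b (ENSMUSG00000022074) encodes the mouse receptor of the ligand TRAIL and is a known target of p53. It had 143 control reads and 199 LY500307 reads, or 8.62 and 13.4 CPM. The LY500307 library was the higher one, with a 1.56-fold ratio of reads (1.252 to 1.95) and a log2 fold of 0.59. Of the 12243 measured genes, 271 had a larger log2 fold. Among the 2719 genes whose mean lay between 5.52 and 22.1 CPM, within 2-fold of its own mean, 2.94% had a larger ratio, and their 5th and 95th percentiles were -0.45 and 0.54 on the log2 scale of the ratio of reads.

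Tnfrsf1a (ENSMUSG00000030341) encodes the main TNF receptor, whose signalling complex can lead to NF-kappaB activity or to cell death. It had 1428 control reads and 1576 LY500307 reads, or 86.1 and 106.5 CPM. The LY500307 library was again the higher one, with a 1.24-fold ratio of reads (1.15 to 1.33) and a log2 fold of 0.30. This ratio lay below that of Tnfrsf10b, but a difference between the 2 genes was not detectable at this depth. Tnfrsf1a rests on about an order of magnitude more reads. Of the 3739 genes within 2-fold of its mean level 2.22% had a larger ratio, and their central 90% ran from -0.26 to 0.24 in log2 ratio. At this level ratios lay closer together than at the level of Tnfrsf10b.

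**Figure D2:**
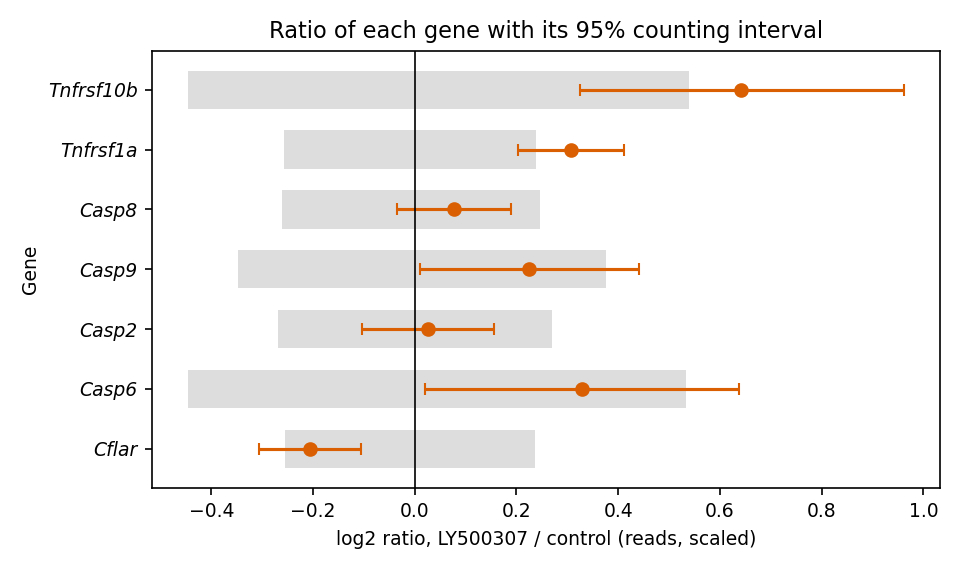
The log2 ratio of scaled reads, LY500307 over control, for each gene (points, 1 library per group) with its exact 95% counting interval (bars), beside the 5th to 95th percentile of measured genes within 2-fold of its mean level (grey bands). Tnfrsf10b at 0.64 and Tnfrsf1a at 0.31 lie to the right of their bands, and the other 5 points, Cflar at -0.21 included, lie inside theirs.

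Of the initiator caspases, Casp8 (ENSMUSG00000026029), the initiator recruited to death receptors, had 1351 control reads and 1271 LY500307 reads, or 81.4 and 85.9 CPM. Its ratio was 1.05 (0.976 to 1.14), so a difference from 1 was not detectable at this depth, and the interval runs from -2.38% to 14.0%. Casp2 (ENSMUSG00000029863), an initiator activated in a complex with PIDD1 and CRADD, had 1027 and 933 reads, or 61.9 and 63.0 CPM, with a ratio of 1.02 (0.931 to 1.11). Both genes were close in the 2 libraries. Casp9 (ENSMUSG00000028914), the initiator of the apoptosome, had 350 and 365 reads, or 21.1 and 24.7 CPM, higher in the LY500307 library by a ratio of 1.17 (1.01 to 1.36). The lower bound for Casp9 lay just above 1. Among the 3906 genes within 2-fold of its mean level 14.7% had a larger ratio.

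Casp6 (ENSMUSG00000027997), an effector caspase known for cleaving nuclear lamins, had 167 control reads and 187 LY500307 reads, or 10.1 and 12.6 CPM. Its ratio was 1.26 (1.01 to 1.56), close in size to that of Tnfrsf1a, and its log2 fold of 0.30 was short of the rule of 25%. On these reads the interval is wide, and 14.5% of the 2755 genes within 2-fold of its mean level had a larger ratio. With exact intervals at 99% those of Casp6 and Casp9 included 1, and those of Tnfrsf10b, Tnfrsf1a and Cflar did not. An exact binomial test on reads, a comparison of libraries rather than of treatments, called the same 3 genes after Benjamini-Hochberg adjustment over all measured genes. It called 12.3% of measured genes higher and 14.2% lower.

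Cflar (ENSMUSG00000026031) was the 1 gene of the set with a lower level in the LY500307 library. It had 1879 control reads and 1453 LY500307 reads, or 113.2 and 98.2 CPM, a ratio of 0.867 (0.809 to 0.929) and a log2 fold of -0.20. This is a difference of -13.3%, with bounds of -19.1% and -7.11%. Of all measured genes 1875 had a lower log2 fold, and of the 3531 genes within 2-fold of its mean level 9.46% had a lower ratio, whose 5th percentile was -0.26 in log2 ratio. The deposited values are per gene, so the long and short forms of FLIP cannot be told apart.

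**Figure D3:**
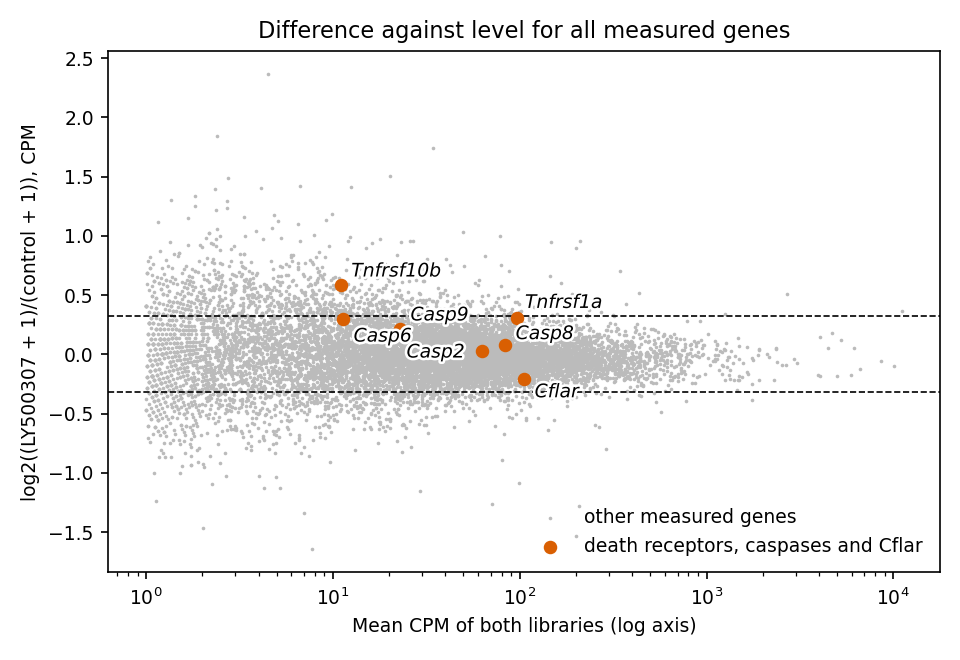
The log2 fold, log2((LY500307 + 1)/(control + 1)) of CPM, against mean CPM on a log axis for all 12243 measured genes (grey), with the 7 death receptor, caspase and Cflar genes in orange, from 1 library per group, and dashed lines at 25% higher and 20% lower. Tnfrsf10b is the 1 labelled gene beyond a dashed line, and Cflar is the 1 labelled gene under 0.

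Near-identical copies and overlapping genes touch some of these values. Cflar shares a stretch with the listed processed pseudogene Gm9845, which had 26 control reads and 28 LY500307 reads, and with both summed the log2 fold of Cflar was -0.20. It also shares a stretch with Gm47551, which was not analysed here. Casp8 shares a stretch with the listed gene Gm20257, which had 16 and 11 reads. Tnfrsf10b shares a stretch with Gm15574 and Gm25735, which were not analysed here. Exons of Casp9 overlap exons of Cela2a and Ctrc on the other strand. Fadd, Relt and Htra2, described among the other genes, also share stretches with other genes, Htra2 with the listed gene Aup1. Cela2a and Ctrc were not analysed here. The sources used here do not say how strand was used in counting, so their reads could not be told apart from those of Casp9. The part of these copies and overlaps in the results was not tested beyond the sum for Cflar.

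Because 2 genes of the same library share its scaling, their ratio compares the libraries without any scaling factor. The 7 genes give 21 pairs, and for each pair the change in ratio from control to LY500307 was given as a conditional odds ratio with an exact 95% interval, which covers counting error only and is not adjusted for the number of pairs. Intervals excluded 1 for 11 pairs. These included all 6 pairs with Cflar. The 6 pairs reuse the same Cflar reads, so they are not separate results. No share over pairs of all measured genes was computed. Single-gene intervals lay above 1 for 17.2% of all measured genes and below 1 for 19.2%. In the control library there were 0.719 reads of Casp8 per read of Cflar, and in the LY500307 library 0.875, so that the ratio of Casp8 to Cflar was 1.22-fold higher (1.10 to 1.35). The ratio of Tnfrsf10b to Cflar was 1.799-fold higher (1.43 to 2.27) and that of Tnfrsf1a to Cflar 1.43-fold higher (1.29 to 1.58). Receptor, initiator and effector genes were thus all higher relative to Cflar in the LY500307 library.

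The 15 pairs without Cflar show how the other genes differed among themselves. Intervals excluded 1 for 5 of these, each with a receptor gene in it. Here too no share over pairs of all measured genes was computed. Tnfrsf10b was higher relative to Casp2 (1.53, interval 1.21 to 1.95), Casp8 (1.48, 1.17 to 1.87) and Casp9 (1.33, 1.02 to 1.75). Tnfrsf1a was higher relative to Casp2 (1.21, 1.08 to 1.36) and Casp8 (1.17, 1.05 to 1.30). The ratio between the receptors, Tnfrsf10b to Tnfrsf1a, was 1.26 with an interval of 0.9996 to 1.59 that just includes 1, so a difference between them was not detectable at this depth. Among the caspases no pair had an interval that excluded 1. For Casp8 against Casp9 the interval was 0.762 to 1.07 and for Casp2 against Casp8 0.857 to 1.09.

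**Figure D4:**
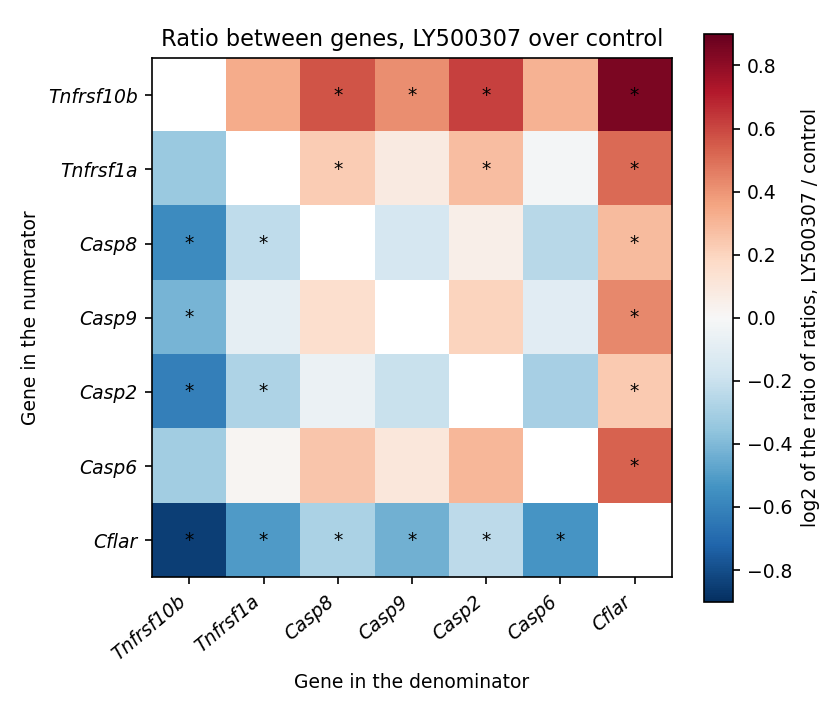
Change in the ratio between each pair of the 7 genes from the control to the LY500307 library, as log2 of the conditional odds ratio (colour), with the gene of the row over the gene of the column, from 1 library per group. Asterisks mark the 11 pairs, each drawn in both orders, whose exact 95% counting interval excludes 1, among them every pair in the Cflar row. Pairs in that row share the same Cflar reads, and no share over pairs of all measured genes was computed.

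Levels of different genes were compared per length, as CPM per kilobase of the longest annotated transcript. Tnfrsf1a had the highest level on this scale, 39.9 control and 49.4 LY500307 CPM per kilobase, followed by Casp8 at 31.5 and 33.2. Casp2 was at 17.5 and 17.9 and Cflar at 17.2 and 14.9 CPM per kilobase. Casp9 was at 5.41 and 6.33, Tnfrsf10b at 2.71 and 4.23 and Casp6 at 2.57 and 3.23. In the control library the neighbours Casp2 and Cflar, and Tnfrsf10b and Casp6, lay closer than their counting error. The lengths behind these values matter, because Cflar has 13 annotated transcripts and Casp2 10. With coding length Cflar was first in the control at 78.0 CPM per kilobase, before Tnfrsf1a at 63.2, and in the LY500307 library Tnfrsf1a was first at 78.2, before Cflar at 67.6. Casp9, Tnfrsf10b and Casp6 were the lowest 3 of the 7 genes in both libraries with the longest transcript, the coding length and all exon bases.

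The genes around these receptors and caspases came from lists chosen by role. Of 7 death ligand genes 2 were listed, Lta on 1 and 2 reads and Tnfsf12, the ligand TWEAK, on 5 and 14, and both lay under the minimum of 1 CPM. Tnfsf12 shares a stretch with the listed readthrough gene Tnfsfm13. Tnfsf10, Fasl and Tnf were not analysed here. Of 13 other receptor genes of the TNF receptor superfamily 11 were listed and 5 reached the minimum. Of these 5 genes 3 passed the rule of 25% upward and 0 downward, against 8.31% and 6.61% of all measured genes. Tnfrsf12a, the receptor of TWEAK, was at 32.1 control CPM and 47.1 LY500307 CPM (log2 fold 0.54, ratio interval 1.31 to 1.65). Tnfrsf22, a mouse decoy receptor of TRAIL, was at 10.2 and 13.9 CPM (0.42, interval 1.11 to 1.68) and Relt at 7.77 and 10.3 CPM (0.36, interval 1.04 to 1.68). Ltbr, the lymphotoxin beta receptor, was at 82.0 and 94.1 CPM (0.20, interval 1.063 to 1.24). The 1 measured gene of this list that was lower, Tnfrsf19, was at 14.4 and 13.3 CPM (-0.11, interval 0.761 to 1.12). It is named here after its values were seen. Tnfrsf23, another mouse decoy receptor, had 0 control reads and 11 LY500307 reads, under the minimum of 1 CPM, with a lower limit of 2.81 for the ratio. Tnfrsf1b, the other TNF receptor, had 0 and 4 reads, Tnfrsf11b 8 and 10, Tnfrsf25 14 and 8, Ngfr 4 and 1 and Tnfrsf26 1 and 2.

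Of 13 measured adaptors and kinases of the death domain pathway 0 passed the rule in either direction. Of all measured genes 8.31% passed it upward and 6.61% downward. The median log2 fold of the 13 genes was 0.02. Counting intervals lay above 1 for 2 genes and below 1 for 2, against 17.2% and 19.2% of all measured genes. Fadd, the adaptor between death receptors and Casp8, was at 36.2 control CPM and 30.7 LY500307 CPM (log2 fold -0.23, interval of the ratio 0.750 to 0.960). Casp8ap2, the other gene with an interval below 1, was at 53.2 and 48.1 CPM (-0.14) and is named here after its values were seen. Mlkl, the effector of necroptosis, was at 50.9 and 62.4 CPM (0.29), and Pea15a, a death effector domain protein, at 53.9 and 65.8 CPM (0.28). Cradd, an adaptor of Casp2, was at 3.31 and 4.05 CPM (0.23) with an interval that includes 1. Ripk3, the kinase that activates MLKL, had 0 and 4 reads.

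Genes of the TNF receptor complex that signals to NF-kappaB had a median log2 fold of 0.00 over 17 measured genes. Of these, 2 passed the rule of 25%, both higher and both on few reads, against 8.31% of all measured genes higher and 6.61% lower. Tnfaip3, a ubiquitin-editing inhibitor of NF-kappaB, had 9 and 22 reads (log2 fold 0.69), and Birc3, an inhibitor of apoptosis protein bound to TRAF2, had 16 and 32 (0.69). Tab3, a partner of the kinase encoded by Map3k7, was at 0.28 and Tnip1, a partner of Tnfaip3, at 0.28. Birc3 is also in the list of inhibitors of apoptosis proteins, of which 5 were measured. Their median was -0.04. Xiap, a direct inhibitor of caspases, was at 60.1 control CPM and 53.9 LY500307 CPM (-0.15, interval of the ratio 0.817 to 0.986), Birc5, or survivin, at -0.09 and Birc2 at 0.18.

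The apoptosome and mitochondrial list had a median log2 fold of -0.08 over 6 measured genes, with 0 past the rule in either direction. Of all measured genes 8.31% passed it upward and 6.61% downward. Apaf1, the scaffold that activates Casp9, was at 79.6 control CPM and 87.2 LY500307 CPM (log2 fold 0.13, interval of the ratio 1.01 to 1.18). Aifm1, a mitochondrial flavoprotein that can be released in cell death, was at 70.2 and 60.0 CPM (-0.22), the nuclease gene Endog at -0.16 and the protease gene Htra2 at -0.09. The inflammatory caspase genes Casp1 and Casp4 had 0 and 2 reads each.

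Of 19 measured genes in the list of caspase substrates and their partners 1 passed the rule upward and 1 downward. Of all measured genes 8.31% passed it upward and 6.61% downward. The median log2 fold of the list was -0.02. Xkr8, a lipid scramblase that caspases activate to expose phosphatidylserine, was at 4.52 and 7.50 CPM (log2 fold 0.62, interval of the ratio 1.23 to 2.25). Dffb, the nuclease that cuts DNA into fragments between nucleosomes, was at 6.09 and 4.32 CPM (-0.41, interval 0.511 to 0.981). It is in the list as the partner of the substrate gene Dffa (0.02) and not as a substrate itself. Lmnb1, which encodes a nuclear lamin, was at 210.4 and 175.1 CPM (-0.26), and Bid, which links Casp8 to mitochondria, at 18.7 and 21.5 CPM (0.19). For comparison, p53 target genes other than Tnfrsf10b had a median log2 fold of 0.44 over 19 measured genes. Of these 11 were past the rule upward and 0 downward, against 8.31% and 6.61% of all measured genes. The largest log2 folds of that list were those of Trp53inp1 (1.04), Btg2 (0.98), Plk2 (0.96) and Cdkn1a (0.95), the last of them the cell cycle inhibitor p21. The BCL2 family, which shares Bax and Bbc3 with that list, had a median of 0.06 over 15 measured genes. It had 3 genes upward and 1 downward, against the same 8.31% and 6.61%. Its largest were those of Bnip3 (-1.15), a mitophagy receptor with near-identical copies, Bmf (0.64), Bbc3 (0.41) and Bcl2l1 (0.33). The median of the 7 receptor, caspase and Cflar genes, at 0.22, lay between the medians of these lists, and no test was made of that difference. Genes and lists were chosen with earlier results of these libraries known.

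**Figure D5:**
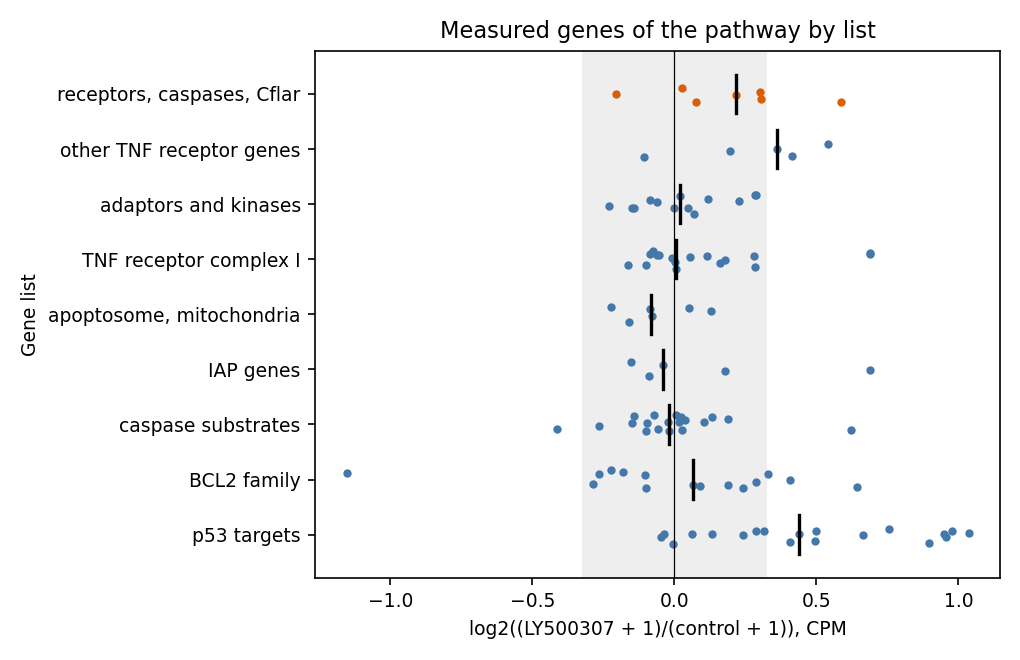
The log2 fold, log2((LY500307 + 1)/(control + 1)) of CPM, of each measured gene (points, 1 library per group) by list, with the 7 receptor, caspase and Cflar genes in orange, medians as black bars for lists of at least 5 measured genes, and the range inside the rule in grey. Most points of the adaptor, apoptosome and substrate lists lie in the grey range. To its right lie 11 of the 19 p53 targets, against 8.31% of all measured genes.

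Cflar and Casp8 are transcribed in the same direction from chromosome 1, and the windows around their starts are shown because the ratio between these genes differed between the libraries. RefSeq promoter windows of 300 bases, 250 before to 50 after the gene start, on build GRCm38.p6, were found for 7 of the 8 genes, Fas among them and Tnfrsf10b not. The window of Cflar is chr1:58711241-58711540 and that of Casp8 chr1:58802252-58802551, both on the plus strand. Capitals mark matches of TATAAA and of CCAAT on either strand, which overlap no other of these matches except that TATAAA matched Cflar on both strands at one place.
Cflar: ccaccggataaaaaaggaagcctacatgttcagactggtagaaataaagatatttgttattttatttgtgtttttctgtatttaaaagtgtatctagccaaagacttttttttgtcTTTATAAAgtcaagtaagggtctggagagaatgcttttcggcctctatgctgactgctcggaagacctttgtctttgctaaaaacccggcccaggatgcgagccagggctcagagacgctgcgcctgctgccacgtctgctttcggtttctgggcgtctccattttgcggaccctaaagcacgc
Casp8: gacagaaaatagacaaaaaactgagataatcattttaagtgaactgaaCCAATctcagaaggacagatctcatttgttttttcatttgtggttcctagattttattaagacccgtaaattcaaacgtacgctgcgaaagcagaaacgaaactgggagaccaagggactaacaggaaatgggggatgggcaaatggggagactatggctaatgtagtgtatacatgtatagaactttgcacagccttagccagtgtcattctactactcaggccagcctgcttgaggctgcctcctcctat

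These windows differed in base composition from those of the other caspase genes. The GC content was 45.0% for Cflar and 42.0% for Casp8, against 62.0% for Casp6, 63.7% for Casp2 and 66.0% for Casp9 and a median of 52.7% over 32851 windows. These windows do not cover every chromosome, and all windows below means these 32851. TATAAA, on either strand, was in 13.6% of all windows and CCAAT in 37.4%. The GC box GGGCGG was in 4 of the 7 windows, those of Fas, Casp2, Casp6 and Casp9, and in 35.7% of all windows. The core AGGTCA of the estrogen response element, on either strand, was in 0 of the 7 windows and in 16.3% of all windows. The p53 motif and the NF-kappaB motif were in 0 of the 7 windows and in 8.36% and 4.51% of all windows. A window without a match says only that these letters are not in it.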

How the data were processed

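The authors deposited 1 table with a signal per gene for 1 control and 1 LY500307 library. Per the submitters' processing notes, CASAVA 1.8, Bowtie2 and mouse build mm9 were involved. How reads were counted, on which annotation, with which filters and scaling, was not given in the sources used here. Deposited values rise in constant steps, 0.944 per read in the control and 1.059 per LY500307 read. Values over the step were whole, to within 1% of a read, for 99.9% of values in each library.

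Reads times step, over the mean of both deposited totals, gave CPM. The measure was log2((LY500307 + 1)/(control + 1)) over genes whose mean reached 1 CPM. No test between treatments could be made from single libraries. Symbols were found for 18177 of 18224 identifiers, and 47 had none. Transcript lengths, reading frames and overlaps came from GENCODE M21 (GRCm38). A near-identical copy was a gene whose transcript aligned by blastn 2.17.0 over 100 bases or more, and over 50% of the shorter transcript, with identity from 95% up. A planned Tnfrsf10b to Fas ratio could not be made.

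The genes and lists were chosen with earlier results of these data known. All 8 genes were to be named, with Apaf1, Fadd, Tnfsf10, Fasl, Tnf and Xiap and up to 4 genes of the largest absolute log2 fold per list, and genes under the minimum by reads. Some genes of that rule are not reported here. Alternatives were other scalings (the TMM factor of edgeR 4.0.16 among them), pseudocounts, minimums, intervals, lengths and the binomial count test, which called 3236 of 12243 genes at an adjusted p under 0.05. On simulated libraries for LY500307 against control with 18224 genes and counting error only, 18 of 50 genes raised by 25%, 48 of 50 changed 1.5-fold and 426 of 12030 unchanged genes passed the rule of 25%, and intervals held the true ratio for 95.5% of unchanged genes, 46 of 50 raised by 25%, 44 of 50 changed 1.5-fold, 48 of 50 changed 2.5-fold and 49 of 50 lowered to 0.6. Software was R 4.3.3 and Python 3.11.15 with matplotlib 3.10.9, pandas 2.3.3, numpy 2.4.6 and scipy 1.17.1.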

Additional observations from a re-analysis of the deposited data

How the results depend on the processing

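No paired analysis was possible because each group is a single library with no replicate number in its labels. Of 98 alternative values, 92 stayed within the margins used, counting error for folds and 1.5 times for counts, and 6 moved beyond them. A reversal was counted only for a log2 fold past the rule of 25%, here Tnfrsf10b, and 0 were found. The other values could not be counted as reversed. With no minimum, or a minimum of 5 CPM, all 7 genes stayed in, so their values repeated the main ones by construction. Those values are counted among the 92, which therefore overstates the agreement. Reads were recovered from the deposited values, so putting those in place of reads in the ratios was no separate check, though it too counts among the 92. The log2 fold of Tnfrsf10b ran from 0.44 to 0.61, that of Tnfrsf1a from 0.29 to 0.32, that of Cflar from -0.20 to -0.18 and the median of the 7 genes from 0.18 to 0.23. With each library over its own total, 2 of the 7 genes, Tnfrsf10b and Tnfrsf1a, passed the rule of 25% in place of 1, with 9.10% of all measured genes higher, and at a threshold of 1.2-fold, chosen after seeing the data, 3 were, with Casp6, against 11.5% of all measured genes. Counting intervals lay above 1 for 2 genes in place of 4 at 99%, against 11.3% of all measured genes, and 2 genes were called higher by the binomial test, against 12.3%. The order of levels per length kept 1 of 7 ranks with coding length and 5 of 7 with all exon bases, a length chosen after seeing the data. The scalings moved the median of all genes to between -0.01 and 0.01. The ratio of Tnfrsf10b to Fas was not run. Among the 7 genes the counting intervals were widest for Tnfrsf10b and Casp6, those with the fewest reads.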
